A study of Mus musculus with 13 samples.

Results

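The cells described here are the 2 libraries of male mouse cells sorted during reprogramming, one negative and one positive for SSEA1, among the 13 libraries of a study of DNA methylation during the making of induced pluripotent stem cells (iPSCs). They were chosen by their labels and set against the 2 libraries labelled male mouse embryonic fibroblast (MEF 4 and MEF 5), and the positive library was set beside the negative one. The 3 male iPSC libraries (1, 2 and 4) served as a reference for the state at the end of reprogramming. The other 6 libraries are female iPSCs and were not used. Each SSEA1 fraction is 1 library. The labels name the cell type and the sex, but no strain, reprogramming factors, day of collection or purity of the sort, and nothing says which libraries share a culture, so the p-values below measure only the spread between these libraries, which may be technical.

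SSEA1 is a carbohydrate antigen on the surface of mouse pluripotent cells that appears on a minority of fibroblasts as they are reprogrammed, and it is used to enrich for cells further along the way. Methylation of cytosine in CpG dinucleotides is copied at cell division by DNMT1 and set anew by DNMT3A and DNMT3B. At promoters of pluripotency and germ cell genes it is part of the silent state in fibroblasts, and its removal is known as a late step of reprogramming. At imprinted control regions methylation sits on the allele of one parent.

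Methylation was measured by reduced representation bisulfite sequencing (RRBS), which reads the CpG-rich fraction of the genome after cutting with a restriction enzyme. A level is the percent of reads over CpGs that were methylated. Levels were taken in tiles of 1000 bases on chromosomes 1 to 19 with at least 3 CpGs and 10 reads in each of the 4 libraries, which left 116058 tiles. Total reads over CpGs ranged from 11337174 in MEF 4 to 25835728 in MEF 5, and the sorted libraries lay between at 18064208 and 17312218. The library labelled MEF 5 stood apart on the sex chromosomes: its Y reads were 0.0219% of its autosomal reads against 0.0913% to 0.109% in the other 3, and its X reads were 0.0401 of the autosomal reads against 0.0283 to 0.0295. Its label is kept with that limit, and the main differences and counts below are also given without it. Intervals below are 95% Wilson intervals. They cover counting error only and are too narrow, because PCR copies cannot be recognised and a read over several CpGs counts at each.

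Taken over all tiles, the sorted libraries differed little from fibroblasts. The mean level was 61.4% in MEF 4 and 63.0% in MEF 5, 61.2% in the SSEA1 negative library and 60.3% in the SSEA1 positive library. The male iPSC libraries were at 52.4%, 56.3% and 55.7% over the same tiles. In this mean over all tiles, both sorted libraries thus lay just under the lower fibroblast library and above all 3 iPSC libraries. The sorted mean of 60.7% ± 0.605 (SD, n = 2) differed from the MEF mean of 62.2% ± 1.14 (SD, n = 2) by -1.47 percentage points, smaller than the -1.61 points between MEF 4 and MEF 5 (exact two-sided permutation test, p = 0.333, the smallest p that 2 against 2 allows). As sorted minus MEF, the difference was -0.665 points without MEF 5 and -2.28 points without MEF 4. The positive minus the negative library was -0.856 points, for which 1 library each gives no test. The sorted mean was below the MEF mean on 19 of 19 autosomes, by 1.05 to 1.88 points, and the positive library was below the negative one on 19 of 19, by 0.621 to 1.25 points; chromosomes of one library are not replicates.

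In tiles highly methylated in fibroblasts, both sorted libraries were below both fibroblast libraries. In the 46604 tiles above 80% in MEF, the level was 88.7% in MEF 4, 87.6% in MEF 5, 85.0% in the SSEA1 negative and 84.1% in the SSEA1 positive library. The sorted and fibroblast libraries did not overlap there, and the difference of the means, as sorted minus MEF, was -3.59 points (exact permutation p = 0.333), or -4.16 without MEF 5 and -3.01 without MEF 4. For the last 2 values both MEF libraries still chose the tiles, so they do not check that choice. The male iPSC libraries were far lower in these tiles, at 68.2%, 72.4% and 73.0%. Because MEF levels chose these tiles, tiles were also classed by MEF 4 and compared with MEF 5 alone. The difference above 80% was then -1.91 points, with -3.18 points between 20% and 80% and -1.06 under 20%, so that the high class no longer stood out. In the 21221 tiles under 20% in MEF the levels were 3.44%, 5.31%, 4.89% and 4.596% in the same order of libraries, and in the 48233 tiles between these bounds 60.5%, 64.7%, 62.9% and 61.8%. In both of these classes the sorted libraries lay between the 2 fibroblast libraries (exact permutation p = 1 for each). The sign of their small differences depended on which MEF library was kept, with the tiles still classed by both. Under 20% it was -0.571 points without MEF 4 and 1.30 points without MEF 5, and between the bounds -2.31 and 1.85 points.

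**Figure D1:**
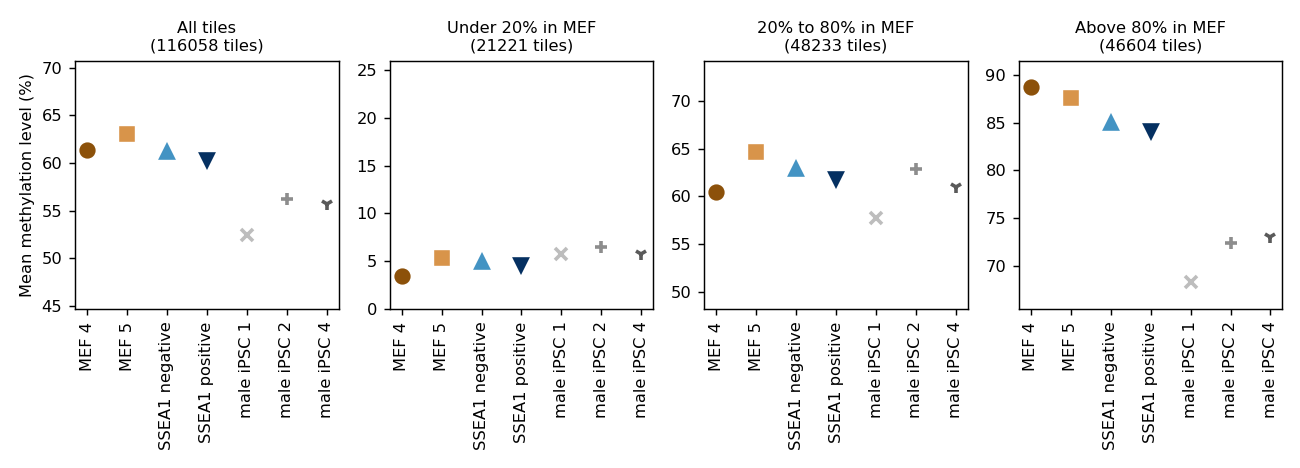
Mean methylation level in percent (vertical axis, with its own 26-point range in each panel) of each library over all tiles and over tiles classed by the mean of the 2 MEF libraries; each symbol is 1 library. Above 80% in MEF, the 2 sorted libraries, at 85.0% and 84.1%, lie below both MEF libraries and above all male iPSC libraries.

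The places where male iPSCs differ most from fibroblasts were still at the fibroblast level in both sorted fractions. Among tiles read deeply enough for single-tile values, meaning at least 5 CpGs read in all 4 libraries and 50 reads in each, 29084 also had 10 reads in each male iPSC library. Of these, 607 were at 70% or more in both MEF libraries and at 30% or less in all 3 iPSC libraries. Their median level was 85.1% in MEF 4, 85.5% in MEF 5, 84.9% in the SSEA1 negative library and 83.7% in the SSEA1 positive library, against 15.5%, 17.1% and 21.2% in the iPSC libraries. Both sorted libraries were still at 70% or more in 511 of the 607 tiles (84.2%), and both were at 30% or less in 1 tile. The opposite pattern, 30% or less in MEF and 70% or more in iPSCs, held for 35 tiles. In 26 of these both sorted libraries were still at 30% or less and in 0 of them were both at 70% or more.

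A fibroblast library that took no part in the choice gave about the same values as the sorted libraries. When MEF 4 and the iPSC libraries alone chose 678 such tiles, 89.5% of them were at 70% or more in MEF 5, 85.7% in the SSEA1 negative and 82.9% in the SSEA1 positive library. When MEF 5 and the iPSC libraries chose 727 tiles, the shares were 83.5% in MEF 4, 87.4% in the negative and 84.2% in the positive library. The sorted libraries were thus under the fibroblast library in the first case and over it in the second. The positive library was below the negative one in 55.8% of the 607 tiles and above it in 44.15%. Over all 29084 tiles it was below in 50.7%, above in 43.2% and equal in the rest, so ties make up part of the contrast. The median difference between them in the 607 tiles was -1.18 points.

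**Figure D2:**
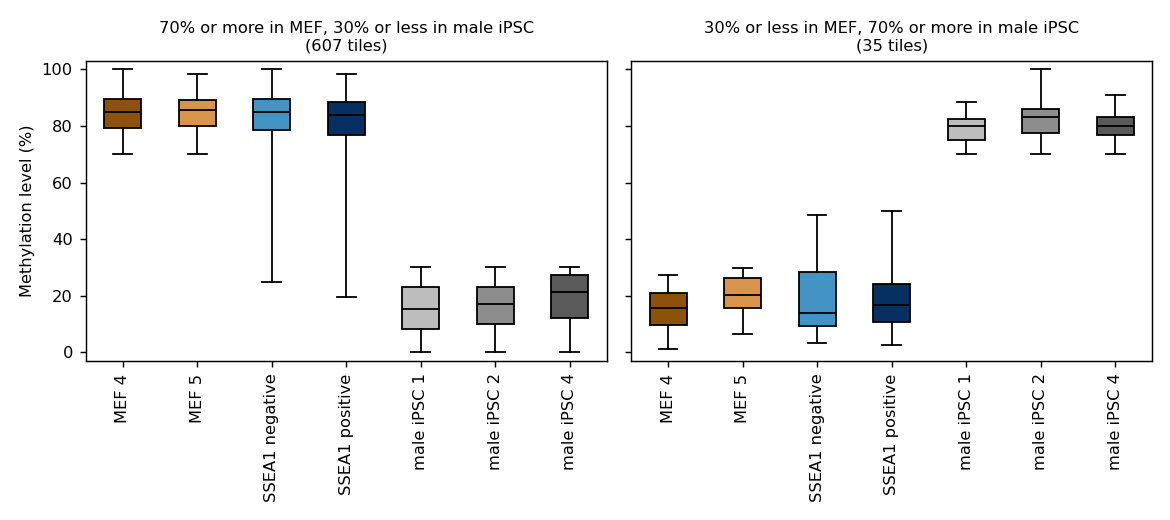
Methylation level in percent (vertical axis) in the 607 tiles that are high in MEF and low in male iPSC (left) and the 35 tiles with the opposite pattern (right), by library; boxes span the quartiles, the line is the median and whiskers reach the lowest and highest tile. The MEF and iPSC values chose the tiles; the boxes of the 2 sorted libraries lie with those of MEF in both panels, with a tail towards iPSC.

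The 1 tile at 30% or less in both sorted libraries lies on chromosome 5, at 139259430 to 139259715 (mm9). Its level was 88.9% (54 reads) in MEF 4 and 72.2% (126 reads) in MEF 5, against 24.8% (interval 18.6 to 32.3, 149 reads) in the SSEA1 negative and 19.5% (interval 13.2 to 27.7, 113 reads) in the SSEA1 positive library. The iPSC libraries were at 6.90%, 17.4% and 13.7%, each below both sorted libraries. Next in this order, with both sorted libraries between the ends, was a tile on chromosome 10 at 6235044 to 6235663. It stood at 85.5% and 73.9% in MEF, 41.1% and 37.8% in the negative and positive library, and 3.28% to 9.80% in iPSCs. Another, on chromosome 12 at 70286008 to 70286864, lies 951 bases from the start of Mgat2, an enzyme that builds N-linked sugar chains, and was at 71.0% and 75.2% in MEF and 51.4% and 56.6% in the sorted libraries. These tiles were picked as those with the lowest sorted levels, so their values describe the extreme and are not tested.

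Promoters were also read gene by gene. Promoter sequences from RefSeq (GRCm38.p6), 250 bases before to 50 bases after each start, were placed among the deposited CpGs by their CpG spacing and sequence context. Of 25748 autosomal genes with a sequence, 10371 were placed and 5313 had at least 3 CpGs and 10 reads in each of the 4 libraries. Most of the measured promoters were unmethylated: 4535 (85.4%) were under 10% in both MEF libraries, and 4417 under 10% in all 4 libraries. The mean over the measured promoters was 5.12% and 6.24% in MEF and 5.18% (SSEA1 negative) and 5.12% (SSEA1 positive) in the sorted libraries (exact two-sided permutation p = 0.667). Of the 119 promoters above 70% in both MEF libraries, 90 were above 70% in both sorted libraries.

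Among these 119, 26 were under 50% in all 3 male iPSC libraries, and 24 of the 26 were above 50% in both sorted libraries. Chosen by MEF 4 alone the counts were 29 of 36, and MEF 5 was above 50% in 34 of the 36. Chosen by MEF 5 alone they were 28 of 35, with MEF 4 above 50% in 31. The 26 windows include 2 pairs that overlap, Btbd18 with Ctnnd1 and Gm12569 with Platr20. Of the 5 germ cell genes of the list that were measured, 4 were above 70% in both MEF libraries. Of these, 3 are among the 26: Mael, Rpl10l and Slc25a31. For comparison, the 26 come from 107 promoters above 70% in both MEF libraries that were also read in the iPSC libraries. Whether germ cell genes are more frequent among the 26 was not tested. The promoter of D1Pas1, a testis-expressed RNA helicase of the DEAD-box family, was at 97.0% and 90.7% in MEF, 94.4% (interval 91.1 to 96.5, 285 reads) in the SSEA1 negative library and 90.4% (interval 84.9 to 94.0, 166 reads) in the SSEA1 positive library, and at 12.5%, 5.56% and 18.1% in the iPSCs. Rpl10l, the testis copy of a ribosomal protein gene, was at 82.5% and 100% in MEF, 98.5% and 96.3% in the sorted libraries and 18.2% to 39.4% in iPSCs. Slc25a31, the germ cell ADP/ATP carrier, was at 100% (22 reads) and 90.2% in MEF, 83.2% and 95.6% in the sorted libraries and 35.1% to 42.1% in iPSCs. In D1Pas1 and Rpl10l the sorted libraries lay at or near the fibroblast level. In Slc25a31 the negative library alone was below both MEF libraries.

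In 3 others both sorted libraries were below both MEF libraries, though in Platr20 the nearest libraries were only 0.620 points apart. Zglp1, a GATA-like zinc finger factor of germ cells, was at 91.1% and 77.0% in MEF, 75% in the SSEA1 negative and 70.4% in the SSEA1 positive library, and 0% to 21.8% in iPSCs. Mael, which takes part in silencing transposons in the germ line, was at 95.2% (21 reads) and 76.1% in MEF, 63.3% and 55.6% in the sorted libraries and 18.4% to 23.9% in iPSCs. Platr20, a long noncoding RNA named for its association with pluripotency, was at 86.7% and 95.4% in MEF, 86.0% in the negative and 72.2% in the positive library, and 0% to 5.33% in iPSCs. In each of these 3 the positive library was the lower of the sorted fractions. Over the 26 promoters it was lower in 15, higher in 9 and equal in 2, and both sorted libraries were below both MEF libraries in 6 and above both in 8. Gm26868 was one of the 6 and had the positive library higher, at 84.2% and 76.8% in MEF, 61.9% in the negative and 71.9% in the positive library. The 2 of the 26 in which a sorted library was not above 50% were Arhgef18, at 61.1% in the negative and 37.5% in the positive library, and Gm14486, at 76.2% and 50%, with as few as 12 and 16 reads in a library; both were named after their values were seen.

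**Figure D3:**
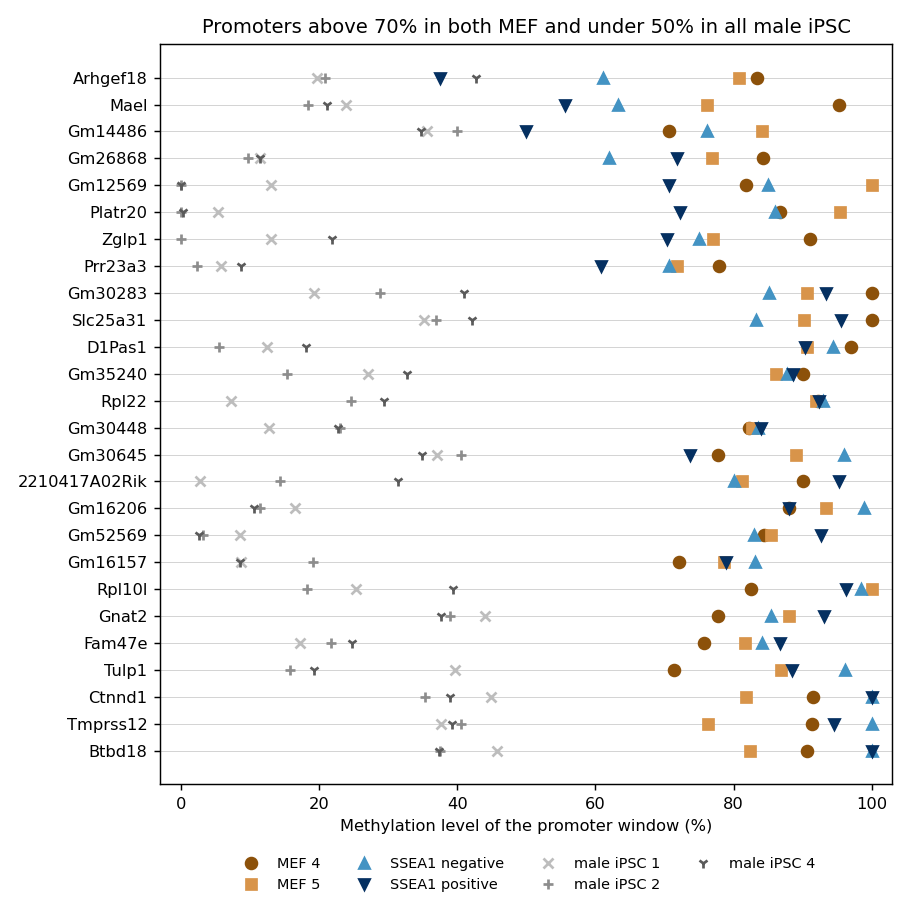
Methylation level in percent (horizontal axis) of the 26 promoters above 70% in both MEF and under 50% in all male iPSC libraries, 1 gene per line, ordered by how far the mean of the sorted libraries lies below that of MEF; each symbol is 1 library. The blue triangles of the sorted libraries stay on the MEF side for 24 of the 26 genes.

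Pou5f1, which encodes the pluripotency factor OCT4, was in the same state. Over the CpGs read from 35642292 to 35643182 on chromosome 17 (mm9), around its start, the level was 61.5% (13 reads) in MEF 4, 63.5% (63 reads) in MEF 5, 66.7% (interval 52.5 to 78.3, 48 reads) in the SSEA1 negative and 64.6% (interval 50.4 to 76.6, 48 reads) in the SSEA1 positive library. The male iPSC libraries were at 11.9%, 15.3% and 7.83%. The 4 libraries lay within about 5 points of each other and more than 40 points above the iPSCs, with a wide interval at this depth. The region around the start of Sox2, another reprogramming factor, was at 0.431% and 7.41% in MEF over 64 CpGs, 10.3% (interval 7.62 to 13.8, 379 reads) in the SSEA1 negative and 4.92% (interval 3.33 to 7.21, 488 reads) in the SSEA1 positive library, and 0.345% to 2.07% in iPSCs. The placed promoter of Sox2, a shorter window, was at 0% and 2.30% in MEF and 0.775% and 2.34% in the sorted libraries. Sox2 was thus low in all of these libraries in both windows. The sequences of 4 promoters with high levels in fibroblasts and low levels in iPSCs are shown so that the position of the measured sites can be seen; capitals mark the CpGs that were read in all 4 libraries, and the coordinates of these sequences are those of GRCm38.p6. The Pou5f1 sequence holds 3 of the 6 CpGs behind the values above, and these 3 alone, on 6 to 21 reads, were under the read minimum, at 66.7%, 52.4%, 100% and 66.7% in the 4 libraries.
D1Pas1, chr1:186967166-186967465, plus strand: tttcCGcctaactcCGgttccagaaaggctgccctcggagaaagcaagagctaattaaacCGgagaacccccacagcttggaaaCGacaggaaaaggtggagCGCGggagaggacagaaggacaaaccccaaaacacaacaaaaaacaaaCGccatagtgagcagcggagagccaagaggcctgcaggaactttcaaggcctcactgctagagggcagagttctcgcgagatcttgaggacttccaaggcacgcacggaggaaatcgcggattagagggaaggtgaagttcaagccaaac
Platr20, chr11:51220369-51220668, minus strand: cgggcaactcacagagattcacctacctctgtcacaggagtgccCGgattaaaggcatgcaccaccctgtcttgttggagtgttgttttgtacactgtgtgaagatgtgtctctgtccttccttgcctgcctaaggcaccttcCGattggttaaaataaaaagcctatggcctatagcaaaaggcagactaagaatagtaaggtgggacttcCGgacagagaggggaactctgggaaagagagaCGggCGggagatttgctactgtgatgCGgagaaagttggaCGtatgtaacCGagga
Zglp1, chr9:21067044-21067343, minus strand: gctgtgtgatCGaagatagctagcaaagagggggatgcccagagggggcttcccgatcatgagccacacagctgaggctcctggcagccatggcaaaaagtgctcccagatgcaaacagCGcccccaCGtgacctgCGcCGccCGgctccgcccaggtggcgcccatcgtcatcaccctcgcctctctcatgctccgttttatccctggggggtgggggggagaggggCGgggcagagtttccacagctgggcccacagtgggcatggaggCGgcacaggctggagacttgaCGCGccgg
Pou5f1, chr17:35505782-35506081, plus strand: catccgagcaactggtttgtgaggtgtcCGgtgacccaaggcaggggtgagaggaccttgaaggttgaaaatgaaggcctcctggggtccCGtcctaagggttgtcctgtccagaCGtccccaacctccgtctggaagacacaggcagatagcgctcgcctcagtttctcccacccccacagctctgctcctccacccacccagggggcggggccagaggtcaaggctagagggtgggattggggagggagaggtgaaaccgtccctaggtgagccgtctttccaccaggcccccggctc

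The test chosen for single tiles called none different between the sorted libraries and MEF, and other fits of the same reads called a few. A quasi-binomial model of the reads of each tile, moderated as in limma and adjusted by the Benjamini-Hochberg method, called 0 of 116058 tiles lower and 0 higher in the sorted libraries at an adjusted p under 0.05 and 10 points (0% of tiles tested in each direction). The smallest adjusted p was 0.635. At an unadjusted p under 0.05 there were 6195 lower and 2596 higher tiles, together 7.57% of those tested. With correct p-values 5% would pass by the cut-off alone, but it was not shown that those of this model are correct. The excess of lower over higher tiles rested largely on MEF 5, so these counts do not show a general loss in the sorted libraries. The model made no calls on simulated differences of known size either, so 0 calls do not show that the tiles are alike. A limma fit on arcsine-transformed levels, added after the data were seen and able to call simulated differences, also called 0 and 0. The same quasi-binomial model with the 3 male iPSC libraries added to the estimate of the spread called 5 tiles lower (0.00431%) and 1 higher (0.000862%). Robust moderation called 49 lower (0.0422%) and 9 higher (0.00775%), and moderation from tiles between 5% and 95% called 321 (0.277%) and 86 (0.0741%). Both were added after the data were seen and also called simulated tiles that had not been altered, and the fit with the iPSC libraries was not tested on simulated data.

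The 6 tiles of the fit with the iPSC libraries had 91 reads or more in each of the 4 libraries. They are described as calls of that fit, and their adjusted p in the model without the iPSC libraries was 0.635 for each. The smallest p belonged to a tile on chromosome 15 at 25699091 to 25699870. Its level was 61.4% (477 reads) in MEF 4, 62.5% (1036 reads) in MEF 5, 24.8% (673 reads) in the SSEA1 negative and 26.6% (640 reads) in the SSEA1 positive library, and 1.16%, 0% and 1.65% in the iPSCs (adjusted p = 0.00736, quasi-binomial model moderated as in limma). The sorted libraries thus stood between fibroblasts and iPSCs. A tile on chromosome 14 at 27861619 to 27861824, 9512 bases from the start of Il17rd, which encodes an inhibitor of FGF receptor signalling, was at 40.7% and 45.8% in MEF, 11.4% and 6.99% in the sorted libraries and 3.85% to 11.1% in iPSCs. On chromosome 3 at 99045003 to 99045996 the levels were 29.3% and 34.0% in MEF, 10.9% in both sorted libraries and 4% to 4.51% in iPSCs. In these 3 tiles the sorted libraries were below MEF on the side of the iPSCs.

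The other 3 differed in their order. On chromosome 10 at 99556616 to 99556944 the level was 83.9% and 86.2% in MEF, 45.0% and 50.7% in the sorted libraries and 50.9% to 70.5% in iPSCs. On chromosome 6 at 34529123 to 34529265 it was 90.1% and 85.8% in MEF, 21.0% and 29.3% in the sorted libraries and 82.9% to 87.8% in iPSCs. The 1 higher tile, on chromosome 9 at 91273046 to 91273614, lies 12787 bases from the start of Zic1, a zinc finger factor of neural development, and was at 1.89% and 5.74% in MEF, 31.9% and 28.9% in the sorted libraries and 3.47% to 5.80% in iPSCs. At 11 of its 13 CpGs both sorted libraries were above both MEF libraries. In the last 2 tiles fibroblasts and iPSCs had similar levels and the sorted libraries stood apart from both.

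Single tiles are therefore described by size: both sorted libraries at least 20 points beyond both MEF libraries. Among the 30693 tiles with at least 5 CpGs read in all 4 libraries and 50 reads in each, 147 were lower in the sorted libraries by this rule (0.479% of those tiles) and 68 were higher (0.222%). Over all tiles the counts were 1371 (1.18%) and 521 (0.449%). The excess of lower over higher tiles rested on MEF 5: without it 413 were lower and 630 higher, and without MEF 4 308 were lower and 118 higher. Of the 147 lower tiles, 117 were between 20% and 80% in MEF (1.25% of the well-read tiles of that class) and 30 above 80% (0.297%). Tiles under 20% in MEF cannot be lower by this rule. The 3744 well-read tiles with 40 or more CpGs held 0 of the lower (0%) and 3 of the higher tiles (0.0801%). Over all tiles this dense the MEF mean was 13.97%, which leaves little room for a fall of 20 points.

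The differences were also read in 2 pairs of libraries with no library in common. Both sorted libraries are numbered 2 and may be fractions of 1 culture, so the 2 pairs are not shown to be independent. Of 762 tiles in which the SSEA1 negative library was 20 points or more below MEF 4, 226 (29.7%) were also 20 points or more lower in the SSEA1 positive library than in MEF 5, against 2.83% of all 30693 tiles. Chosen the other way round, by the positive library and MEF 5, 226 of 869 (26.01%) were lower in the other pair, against 2.48% of all. For higher tiles the shares were 112 of 1190 (9.41%, against 1.10%) and 112 of 339 (33.0%, against 3.88%). More of the tiles found in 1 pair were thus past 20 points in the other pair than among tiles at large, and most of the tiles found in 1 pair were not. All 30693 tiles include 11226 under 20% in MEF, with little room for such a fall. They also include 10108 above 80%, with little room for such a rise. The shares were not compared at matched levels, so the excess cannot be told apart from an effect of the starting level.

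In most of these tiles the 3 iPSC libraries did not all lie nearer to the sorted than to the MEF level. In the 143 lower tiles also read in iPSCs, the median level was 68.0% in MEF, 35.1% in the SSEA1 negative and 34.3% in the SSEA1 positive library, and 62.0%, 69.3% and 66.8% in the iPSC libraries. All 3 iPSC libraries lay on the MEF side of the midpoint between MEF and sorted levels in 78 of the 143 tiles and on the sorted side in 40. In the 66 higher tiles the medians were 31.3% in MEF, 66.5% and 65.1% in the sorted libraries and 16.7%, 18.8% and 19.04% in iPSCs. All 3 iPSC libraries lay on the MEF side in 42 of these and on the sorted side in 18. The iPSC values took no part in choosing the tiles, and the split was not tested.

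Of the well-read lower tiles, the largest gap between the groups was on chromosome 6 at 5089803 to 5089955, with 7 CpGs that were each lower in both sorted libraries than in both MEF libraries. Its level was 87.7% (57 reads) in MEF 4, 89.3% (75 reads) in MEF 5, 30% (interval 21.1 to 40.8, 80 reads) in the SSEA1 negative and 34.7% (interval 25.9 to 44.7, 95 reads) in the SSEA1 positive library, and 64.9% to 77.8% in iPSCs. The tile at 47213744 to 47213990 on chromosome 14 was at 68.2% and 54.0% in MEF, 11.2% and 9.88% in the sorted libraries and 81.5% to 95.1% in iPSCs. In both tiles the sorted libraries lay far below MEF and iPSCs alike. By contrast, the tile at 21322691 to 21322922 on chromosome 16 was at 54.7% and 64.7% in MEF, 13.2% and 14.2% in the sorted libraries and 18.4% to 40% in iPSCs, so there the sorted libraries were at or below the iPSC level.

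Among the higher tiles, the one at 77688130 to 77688760 on chromosome 15 was at 32.0% and 25.6% in MEF, 67.6% (105 reads) in the SSEA1 negative and 65.1% (152 reads) in the SSEA1 positive library, and 1.22%, 1.01% and 2.80% in iPSCs. The tile at 59988810 to 59988976 on chromosome 11 was at 18.5% and 31.2% in MEF, 66.7% and 61.4% in the sorted libraries and 0.866% to 3.75% in iPSCs. Both tiles were therefore most methylated in the sorted fractions and nearly unmethylated in iPSCs. The tile at 71375069 to 71375561 on chromosome 9 had the other order, with 24.0% and 37.3% in MEF, 71.2% and 71.5% in the sorted libraries and 74.7% to 89.9% in iPSCs. None of the 20 tiles with the largest gaps overlapped a placed promoter (1 of them is on chromosome 18, where no promoter was placed), and they were ranked by the gap itself, so their size is a description. Their adjusted p in the quasi-binomial model moderated as in limma was 0.635 for each.

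**Figure D4:**
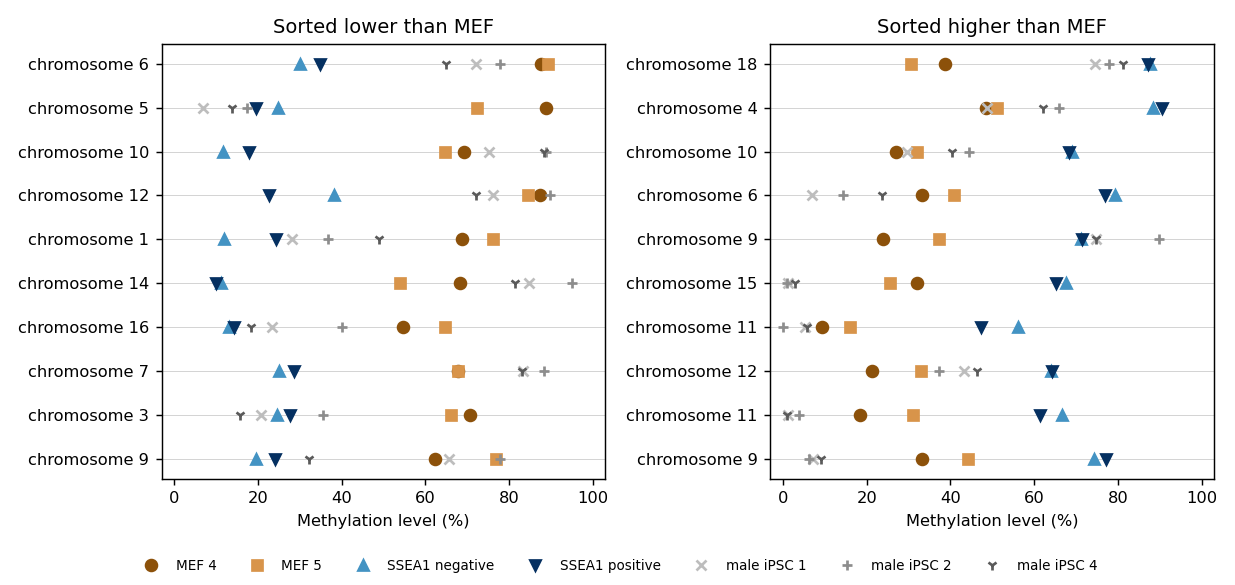
Methylation level in percent (horizontal axis) of the 10 tiles with the largest gap in each direction between the sorted and the MEF libraries, 1 tile per line named by its chromosome; each symbol is 1 library. On each line the negative and positive sorted libraries lie nearer to each other than to either MEF library, while the grey iPSC symbols lie near MEF in some tiles and near the sorted libraries or beyond in others.

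Few promoters differed between the sorted libraries and fibroblasts. Among the 2909 promoters with at least 5 CpGs read in all 4 libraries and 30 reads in each, 15 had both sorted libraries at least 10 points below both MEF libraries (0.516% of those promoters) and 9 had both at least 10 points above (0.309%). With 20 points, 5 were lower (0.172%) and 0 higher (0%). Without MEF 5 the counts at 10 points were 65 and 42, and without MEF 4 they were 74 and 14.

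The largest gap was in Pafah2, which encodes an acetylhydrolase that cleaves platelet-activating factor. Its level over 10 CpGs was 79.7% (interval 68.8 to 87.5, 69 reads) in MEF 4, 77.0% (interval 71.4 to 81.9, 244 reads) in MEF 5, 36.4% (interval 31.1 to 42.0, 297 reads) in the SSEA1 negative and 42.0% (interval 35.4 to 48.9, 200 reads) in the SSEA1 positive library. The iPSC libraries were at 30.8%, 50.6% and 42.3%, so the sorted libraries were within the iPSC range. Pramel1, of the PRAME-like family expressed in germ cells, was at 69.5% and 59.7% in MEF, 38.2% and 38.3% in the sorted libraries and 13.04% to 20% in iPSCs, and so lay between both ends. Klb, the co-receptor beta-Klotho of FGF21, was at 61.5% (39 reads) and 49.6% in MEF, 28.7% and 15.9% in the sorted libraries and 47.5% to 63.7% in iPSCs. Of these 3, Klb alone had iPSCs near the fibroblast level.

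Smaller gaps were seen at Lypd3, which encodes a surface protein of the Ly6 family, and at Kcnn3, a calcium-activated potassium channel. Lypd3 was at 38.1% and 32.0% in MEF, 15% and 18.1% in the sorted libraries and 3.33% to 15.4% in iPSCs. Kcnn3 was at 15% and 12.7% in MEF, 0.901% and 0% in the sorted libraries and 0.857% to 4.05% in iPSCs. In the other direction, Fut1, an alpha-1,2-fucosyltransferase, was at 8.16% (49 reads) and 18.3% (104 reads) in MEF, 47.7% (interval 33.8 to 62.1, 44 reads) in the SSEA1 negative and 34.7% (interval 22.9 to 48.7, 49 reads) in the SSEA1 positive library, and 3.09% to 13.04% in iPSCs. Dnah10, an axonemal dynein heavy chain, was at 9.09% and 18.3% in MEF, 32.4% and 40.8% in the sorted libraries and 8.57% to 16.5% in iPSCs. At both of the last genes the sorted libraries were above MEF and iPSCs alike. Gm41399, a predicted gene without a known role, was at 30.1% and 31.5% in MEF, 5.90% and 11.5% in the sorted libraries and 46.9% to 53.6% in iPSCs, and both sorted libraries were lower than both MEF libraries at 8 of its 8 CpGs. Sequences of 4 promoters of genes with a described product follow, again with GRCm38.p6 coordinates and the CpGs read in all 4 libraries in capitals.
Pafah2, chr4:134402720-134403019, plus strand: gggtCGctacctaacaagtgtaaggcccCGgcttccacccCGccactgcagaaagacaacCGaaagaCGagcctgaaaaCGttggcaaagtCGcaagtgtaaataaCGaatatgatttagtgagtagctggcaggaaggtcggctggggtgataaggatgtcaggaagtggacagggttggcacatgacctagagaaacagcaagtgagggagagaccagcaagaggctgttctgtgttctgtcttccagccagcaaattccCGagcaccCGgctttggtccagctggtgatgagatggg
Pramel1, chr4:143394191-143394490, plus strand: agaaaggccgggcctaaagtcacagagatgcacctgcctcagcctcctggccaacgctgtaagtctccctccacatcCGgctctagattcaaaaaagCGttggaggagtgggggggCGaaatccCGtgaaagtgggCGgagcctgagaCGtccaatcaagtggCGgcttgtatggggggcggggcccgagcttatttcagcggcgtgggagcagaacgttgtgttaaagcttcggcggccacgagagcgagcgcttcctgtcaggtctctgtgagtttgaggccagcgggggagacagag
Klb, chr5:65348161-65348460, plus strand: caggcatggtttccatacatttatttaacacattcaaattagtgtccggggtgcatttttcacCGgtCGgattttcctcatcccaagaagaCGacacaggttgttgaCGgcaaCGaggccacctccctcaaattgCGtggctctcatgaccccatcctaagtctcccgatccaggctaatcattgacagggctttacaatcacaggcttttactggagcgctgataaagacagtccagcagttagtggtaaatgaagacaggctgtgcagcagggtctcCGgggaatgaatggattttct
Fut1, chr7:45617356-45617655, plus strand: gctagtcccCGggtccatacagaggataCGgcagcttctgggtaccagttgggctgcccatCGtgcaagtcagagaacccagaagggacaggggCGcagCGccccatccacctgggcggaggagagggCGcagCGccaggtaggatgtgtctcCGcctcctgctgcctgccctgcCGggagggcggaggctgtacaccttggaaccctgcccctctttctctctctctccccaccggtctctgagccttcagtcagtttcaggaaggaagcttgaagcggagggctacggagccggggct

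Lists of genes for the fibroblast, epithelial, pluripotent and germ cell states could be read only in part, because RRBS and the placing of promoters covered few of their members. Of 25 pluripotency genes 4 were measured, and Sox2, Esrrb, Klf2 and Fgf4 were each at or under 5.13% in all 4 libraries. In the SSEA1 negative library Esrrb rested on 10 reads (0%, interval 0 to 27.75) and Klf2 on 23 reads (0%, interval 0 to 14.3). Fgf4 had 2 CpGs read in all 4 libraries. Of 20 fibroblast and mesenchymal genes 2 were measured: Col1a2, a type I collagen chain, at 5.68% and 1.18% in MEF and 0% in both sorted libraries, and Snai1, a repressor of epithelial genes, at 0% in all 4. Of 13 epithelial genes, Ocln, a tight junction protein, stayed at or under 3.85%, and Krt18, an epithelial keratin, was at 10% (20 reads) and 11.9% in MEF. It was at 17.7% in the SSEA1 negative library and 27.3% in the positive one, against 0% to 0.714% in iPSCs. Of 18 germ cell genes 5 were measured, and Mael was the 1 with both sorted libraries at least 10 points below both MEF libraries (0.583% of all 5313 promoters). No listed gene was 10 points above MEF in both sorted libraries (0.508% of all). Ddx4, a germ cell RNA helicase, was at 50% (28 reads) and 88.7% in MEF, 75.4% in the SSEA1 negative and 41.5% in the SSEA1 positive library and 2.78% to 25.9% in iPSCs, so its groups overlapped. Tex101, a germ cell surface protein, was at 100% (18 reads) and 86.0% in MEF, 82.8% and 77.8% in the sorted libraries and still 68.3% to 81.1% in iPSCs. The median difference between the sorted and MEF means was 0.204 points for pluripotency, -1.71 for fibroblast and mesenchymal and 6.39 for epithelial genes, each over 2 to 4 genes. For the 5 germ cell genes it was -10.9 points, the value of Ddx4, and -10.6 without MEF 5 and -5.70 without MEF 4. Over all 5313 promoters, most of them unmethylated, it was -0.0568, and over the 119 promoters above 70% in both MEF libraries -1.36.

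The positive library was more often below the negative one than above it. Among the 30693 well-read tiles, the positive library was 20 points or more below the negative one in 486 (1.58%) and above it in 316 (1.03%), 802 in all (2.61%). The 2 fibroblast libraries, whose order has no meaning, were 20 points or more apart in 1122 (3.66%), with MEF 4 lower in 859 (2.8%) and higher in 263 (0.857%). Over all 116058 tiles, the positive library was lower in 6801 (5.86%) and higher in 5019 (4.32%), and MEF 4 was lower than MEF 5 in 8673 (7.47%) and higher in 4724 (4.07%). Median depth in the well-read tiles was 152 and 148 reads in the sorted libraries and 96 and 216 in MEF 4 and 5, so the pairs differ in depth. With 1 library per fraction none of these differences has a replicate check. In tiles above 80% in MEF the sorted libraries were 20 points apart in 123 (1.22%) and the MEF libraries in 53 (0.524%). Between 20% and 80% the counts were 578 (6.18%) and 991 (10.6%). The MEF levels set these classes, and a MEF mean above 80% limits how far apart the MEF libraries can be. The classes therefore cannot show whether the order of the pairs depends on the level.

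**Figure D5:**
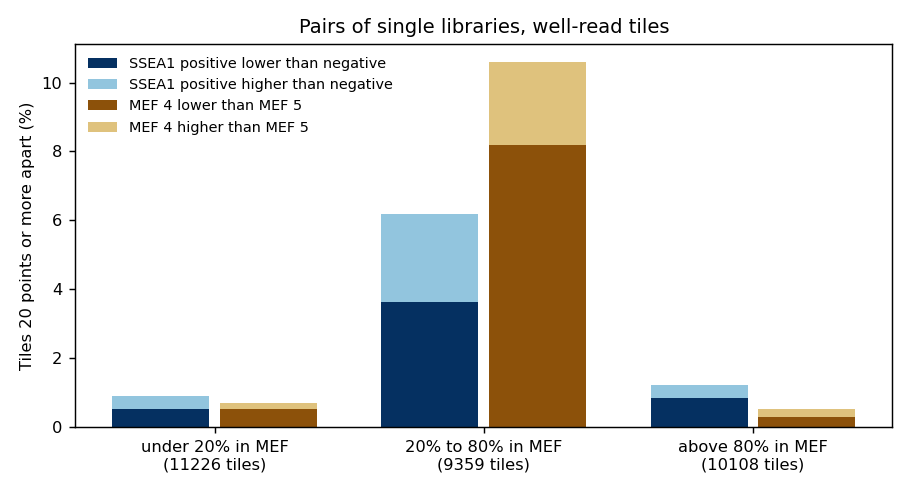
Share of well-read tiles in percent (vertical axis, from 0) in which 2 single libraries are 20 points or more apart, by the mean level in MEF; each bar stacks both directions, for SSEA1 positive against negative (blue) and MEF 4 against MEF 5 (brown). The MEF bar is the taller between 20% and 80% in MEF, at 10.6% against 6.18%, and the SSEA1 bar above 80%, at 1.22% against 0.524%. The MEF levels set the classes, which limits how far apart the MEF libraries can be above 80%.

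To see which fraction departed from fibroblasts, tiles with MEF 4 and MEF 5 within 10 points were taken, 25390 in all. The positive library was at least 20 points lower than the negative one in 273 of them (1.08%) and higher in 171 (0.674%). In the 273, the positive library alone lay over 10 points beyond the MEF range in 140 tiles and the negative library alone in 87. In the 171 the counts were 70 and 74. Of the 260 lower tiles also read in iPSCs, all 3 iPSC libraries lay on the positive side of the midpoint in 123 and on the negative side in 77. Of the 160 higher tiles the counts were 52 and 75. In both directions the iPSCs were thus more often at the lower end. There was no well-read tile, 0 of 30693, with the sorted libraries 20 points out on opposite sides of both MEF libraries.

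In some tiles the positive library alone lay far below MEF, on the side of the iPSCs. On chromosome 17 at 89036023 to 89036377, the level was 51.0% and 53.4% in MEF, 52.2% (interval 42.1 to 62.1, 92 reads) in the SSEA1 negative and 7.69% (interval 3.95 to 14.4, 104 reads) in the SSEA1 positive library, and 8.65%, 18.6% and 38.4% in iPSCs. The positive library was lower at 11 of the 13 CpGs. On chromosome 7 at 20080433 to 20080980 it was 70% and 79.3% in MEF, 79.4% in the negative and 29.1% in the positive library, and 34.1% to 38.9% in iPSCs. In both tiles the positive library was below every iPSC library, and on chromosome 17 the iPSC libraries differed widely. Elsewhere the negative library was the one apart. On chromosome 6 at 52189695 to 52189875, 1033 bases from the start of Hoxa10, a homeobox gene of posterior and limb patterning, it was 6.90% and 12.6% in MEF, 40.7% (86 reads) in the negative and 0% (interval 0 to 3.47, 107 reads) in the positive library, and 8.37% to 11% in iPSCs. On chromosome 19 at 47384372 to 47384594 the negative library was at 46.2% and the positive at 90.4%, with MEF at 86.2% and 86.1% and iPSCs at 87.8% to 92%. These tiles are among the 8 with the largest difference in each direction and were picked for it.

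Hox clusters, whose genes set position along the body axis, were at low mean levels in all 4 libraries. The HoxC cluster stood out: over its 50 tiles between 102751001 and 102867000 on chromosome 15 the mean was 13.9% and 13.9% in MEF, 7.52% in the SSEA1 negative and 6.97% in the SSEA1 positive library, and 13.5% to 16.4% in iPSCs. Both sorted libraries were below both MEF libraries in 18 of the 50 tiles (23% of all tiles) and above both in 4 (14% of all tiles). As sorted minus MEF, the cluster's difference was -6.68 points, that of HoxA -0.960, HoxB -0.489 and HoxD 2.01 points, with the MEF libraries 2.11, 4.55 and 2.90 points from each other in these 3. The HoxC value was -6.66 points without MEF 5 and -6.70 without MEF 4, while those of HoxA and HoxB were 0.0968 and 1.79 points without MEF 5. In 2 of the 50 HoxC tiles both sorted libraries were 20 points or more below both MEF libraries, and over the other 48 the difference was -5.09 points. The median over the 50 was -2.09 points.

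Imprinted control regions varied widely between single libraries. Of 21 windows, 18 had enough reads, and their mean level was 47.7% in MEF 4, 46.0% in MEF 5, 43.7% in the SSEA1 negative and 39.5% in the SSEA1 positive library. As sorted minus MEF the difference was -5.23 points (exact two-sided permutation test, p = 0.333, again the smallest possible), and it was -6.12 points without MEF 5 and -4.35 without MEF 4. It was -7.32 points without the SSEA1 negative and -3.14 without the SSEA1 positive library, and 14.6 points, the other direction, over the 2 windows left on CpGs with 10 reads in all 4 libraries. The MEF libraries themselves were a median of 15.3 points apart per window and up to 70.9 points, at Zrsr1 with 23 reads in MEF 4. The 2 sorted libraries were a median of 11.97 points apart, and the sorted and MEF means 15.5 points. Over the 10 windows with 50 reads in each of the 4 libraries, the MEF libraries were a median of 12.2 and at most 30.3 points apart. The sorted and MEF means were there a median of 9.80 and at most 48.3 points apart, both largest values being at Airn. The 2 sorted libraries were there a median of 11.97 and at most 49.6 points apart. This largest value was at Inpp5f_v2, with 63.3% (210 reads) in the SSEA1 negative and 13.75% (160 reads) in the SSEA1 positive library. The median difference between the sorted and MEF means was thus about the size of that between the 2 MEF libraries. In the deeper windows the largest differences between the sorted and MEF means and between the 2 sorted libraries exceeded the largest between the MEF libraries. In 3 windows both sorted libraries were at least 10 points below both MEF libraries and in 2 at least 10 points above.

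Grb10, an adaptor protein that limits growth, had the deepest of these windows. Over 30 CpGs from 11925631 to 11926883 on chromosome 11 it was at 39.2% (interval 31.3 to 47.8, 130 reads) and 49.4% (interval 43.2 to 55.6, 249 reads) in MEF, 25.8% (interval 18.99 to 34.0, 128 reads) in the SSEA1 negative and 26.1% (interval 19 to 34.6, 119 reads) in the SSEA1 positive library, and 55.7% to 73.4% in iPSCs. The region of Airn, the noncoding RNA that silences Igf2r, was at 86.0% (57 reads) and 55.7% in MEF, 24.1% (87 reads) and 20.8% (72 reads) in the sorted libraries and 46.7% to 61.9% in iPSCs. Nap1l5 was at 97.3% (37 reads) and 82.4% in MEF, 43.9% (57 reads) and 53.1% in the sorted libraries. Of these 3, the sorted libraries were below the iPSCs at Grb10 and Airn and within their range, 43.2% to 61.8%, at Nap1l5. In the other direction Mest was at 15.9% and 34.8% in MEF and 77.8% and 83.6% in the sorted libraries, and Peg3 at 32.4% and 32.8% against 61.3% and 75.5%, each on 23 to 80 reads. The iPSCs were above MEF at both, at 75.7% and 50.7% in the 2 libraries with enough reads at Mest and at 43.6% to 66.7% at Peg3.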

How the data were processed

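Per the labels, genomic DNA of male cells was read by RRBS; 7 of the 13 libraries were used. Per the submitters' processing notes, BSMAP and the build mm9 were used; other settings: not given in the sources used here. The deposited tables hold, per the file headers, unnormalised counts of all and of methylated reads at each CpG. The deposited fraction is their ratio and was used only as a check. Counts were summed over tiles, windows and promoters, and a level is methylated over all reads. Group means were compared by exact two-sided permutation. Tiles were tested with a quasi-binomial model moderated as in limma (squeezeVar), tested on simulated data, on which it made no calls.

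Promoters were placed by matching the spacing and deposited 5-base context of at least 5 CpGs to RefSeq sequences (GRCm38.p6); 11850 of 31396 sequences were kept, 1 window per gene, and no coordinates were converted. Windows for imprinted regions and clusters come from general knowledge of mm9, and their edges may differ from the true ones.

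The libraries, lists and rules were chosen with earlier results of these data known. The planned rule for named tiles (10 called tiles per direction) named none. The 20-point rule, its depth minimum, the 10 tiles per direction by gap, the 70% and 30% bounds, the placing of promoters, the use of gene lists on them and the 10-point promoter rule were set after the data were seen. For the positive against negative library, the 8 tiles per direction with the largest difference, MEF within 10 points, could be named. The 6 tiles called with the iPSC libraries, Gm26868 and Gm41399 were named after their values were seen. Alternatives concern coverage, weighting, tile width, the test and each library left out. Python 3.11.15, numpy 2.4.6, R 4.3.3 and limma 3.58.1 were used.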

Additional observations from a re-analysis of the deposited data

How the results depend on the processing

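No paired analysis was possible because the MEF libraries are numbered 4 and 5 and the sorted libraries 2, so that the groups share no number. The mean difference between sorted and MEF libraries kept its direction in all alternatives run (-2.28 to -0.665 points with 1 library left out), as did that between the SSEA1 positive and negative libraries. Above 80% in MEF the difference was -2.25 points on CpGs with 10 reads in all 4 libraries, -2.65 with 30 reads per tile and -4.62 with CpGs weighted equally. With tiles classed by MEF 4 and compared with MEF 5 it was -1.91 points, -1.06 under 20% and -3.18 between 20% and 80%. With 1 library left out, the imprinted windows gave -7.32 to -3.14 points, and on CpGs with 10 reads 14.6 points over 2 windows, the other direction.

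The count of 0 called tiles held for limma on log2 ratios and on arcsine levels and with each library left out. It was 5 lower and 1 higher in a fit with the male iPSC libraries, 49 and 9 with robust moderation and 321 and 86 with moderation from tiles between 5% and 95%; the latter 2, added after the data were seen, also called simulated tiles that had not been altered. The positive library was lower than the negative by 20 points in 544 tiles and higher in 344 on CpGs with 10 reads, 1909 and 1295 with 30 reads per tile, and 3158 and 2349 with 5 CpGs per tile (fewer tiles tested in each); it was lower in 20166 and higher in 16229 at 10 points, and higher in 7590 with CpGs weighted equally. Among well-read tiles 20 points beyond MEF, 21 were lower and 18 higher on CpGs with 10 reads; leaving out 1 library gave 293 to 442 lower and 118 to 630 higher. Of tiles chosen by the first pair, 21.4% passed in the other with CpGs weighted equally. The share of tiles still at 70% was 87.1% on CpGs with 10 reads, 78.5% at any depth and 69.5% with bounds of 80% (then also asked of the sorted libraries) and 20%. Promoters lower or higher by 10 points numbered 31 and 27 with 3 CpGs and 10 reads, 6 and 1 with 50 reads, 5 and 0 at 20 points, and 26 to 74 and 14 to 42 with 1 library left out. The named tile on chromosome 13 at 48480024 reversed to -1.83 points with CpGs weighted equally; the other 377 of 378 alternative values of the 47 tiles kept their sign. The causes were not tested.

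Each SSEA1 fraction is 1 library, so no difference between them has a replicate check, and an exact permutation of 2 against 2 libraries cannot go below 0.333; the tile models are not bound by this. Depth limits single windows: Pou5f1 rests on 13 reads in MEF 4.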
